A study of Mus musculus with 48 samples.

Results

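The genes described here encode the hormones of the anterior pituitary, together with the factor that switches several of them on: Pomc, Gh, Prl, Tshb, Cga, Lhb, Fshb and Pou1f1. These 8 genes, of 19752 gene symbols with a probe on the mRNA array, were chosen by name because their signal was seen to vary strongly between arrays of 1 group, so their levels and spread are given as a description, without a test. Each had 1 probe, named through its RefSeq transcript. The RNA came from the cortex or the whole brain of male mice, which were wild type (WT, strain C57BL/6J) or Tg2576 (strain Tg(APPSWE)2576Kha, which carries human amyloid precursor protein with the Swedish mutation driven by the hamster prion protein promoter) and were 10 or 17 months old. There were 8 groups of genotype, tissue and age with 3 mRNA arrays each, 24 in all, and no group had a further treatment. The labels number the samples of a group without saying that they came from separate animals, so a p-value measures the spread between these samples.

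The anterior pituitary is a gland below the hypothalamus, outside the brain proper, and its endocrine cells are named for what they secrete. Somatotrophs make growth hormone (Gh), lactotrophs prolactin (Prl) and thyrotrophs the beta subunit of thyrotropin (Tshb). Gonadotrophs make the beta subunits of luteinizing and follicle-stimulating hormone (Lhb, Fshb). Corticotrophs, and melanotrophs of the intermediate lobe, make pro-opiomelanocortin (Pomc), the precursor of ACTH and melanocyte-stimulating hormone. Cga encodes the alpha subunit that thyrotropin and the gonadotropins share. POU1F1 (Pit-1) is the homeodomain factor that somatotrophs, lactotrophs and thyrotrophs depend on. Pomc is also made inside the brain, by neurons of the arcuate nucleus.

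The sequences before the transcription starts of 3 genes that moved together on the arrays and of 1 that did not are shown as RefSeq gives them for build GRCm38.p6. Each is 250 bases long, runs 5′ to 3′ on the + strand and ends just before the annotated start. Capitals mark TATAAA, the TATA box, searched on the coding strand, and TATNCAT, the core of known POU1F1 sites, searched on both strands (ATGNATA on the other). The Prl window lies at chr13:27057320-27057569, the Cga window at chr4:34893529-34893778, the Pomc window at chr12:3954695-3954944 and the Lhb window at chr7:45420696-45420945.
Prl: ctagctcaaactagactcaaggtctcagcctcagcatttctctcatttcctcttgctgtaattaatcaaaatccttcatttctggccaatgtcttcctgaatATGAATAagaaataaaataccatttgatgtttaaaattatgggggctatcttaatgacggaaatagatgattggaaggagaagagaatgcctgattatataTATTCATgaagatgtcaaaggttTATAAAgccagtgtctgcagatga
Cga: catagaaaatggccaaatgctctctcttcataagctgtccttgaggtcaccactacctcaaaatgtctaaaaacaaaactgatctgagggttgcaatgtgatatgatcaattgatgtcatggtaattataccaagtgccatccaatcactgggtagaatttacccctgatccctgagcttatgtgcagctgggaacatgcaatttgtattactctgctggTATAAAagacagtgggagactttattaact
Pomc: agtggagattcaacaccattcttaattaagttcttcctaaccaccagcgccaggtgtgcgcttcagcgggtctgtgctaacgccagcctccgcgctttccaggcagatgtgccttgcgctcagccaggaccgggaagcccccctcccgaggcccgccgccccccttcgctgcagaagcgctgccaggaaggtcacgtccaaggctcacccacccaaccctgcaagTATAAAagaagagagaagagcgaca
Lhb: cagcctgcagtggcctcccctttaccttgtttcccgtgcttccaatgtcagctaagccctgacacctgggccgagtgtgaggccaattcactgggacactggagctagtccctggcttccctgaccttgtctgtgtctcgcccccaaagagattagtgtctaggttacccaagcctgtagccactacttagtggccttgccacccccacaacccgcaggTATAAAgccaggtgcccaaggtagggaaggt

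The Prl window held 2 matches of TATNCAT, 1 on each strand, which began 148 and 47 bases before the start and did not overlap the TATA box 24 bases before it. The windows of Cga, Pomc and Lhb held no such match and 1 TATA box each, which began 30, 25 and 31 bases before the start. Of all 32851 promoter windows of this length in the table, 7.92% held TATNCAT on either strand and 7.59% held TATAAA. A match of letters is a description of the sequence only. The sequence table lists 7 of the 8 genes, Gh being the other.

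Between 34151 and 41084 of 55681 probes were well above background on an array, and no spot of these genes was saturated. All 7 markers of cortical neurons used here, among them Tbr1 and Emx1, were well above background on all 24 arrays of both tissues. Values below are log2 signals relative to the 75th percentile of the array, and since a probe's brightness depends on its sequence, the level of 1 gene is not set against that of another. Prl, Pomc and Lhb were well above background on all 24 arrays, Gh on 21 and Cga on 17. Tshb reached that mark on 3 arrays, Fshb on 2 and Pou1f1 on 1, so these 3 genes never had 2 such arrays in a group and entered no test. The remaining 5 genes were tested in every comparison.

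**Figure D1:**
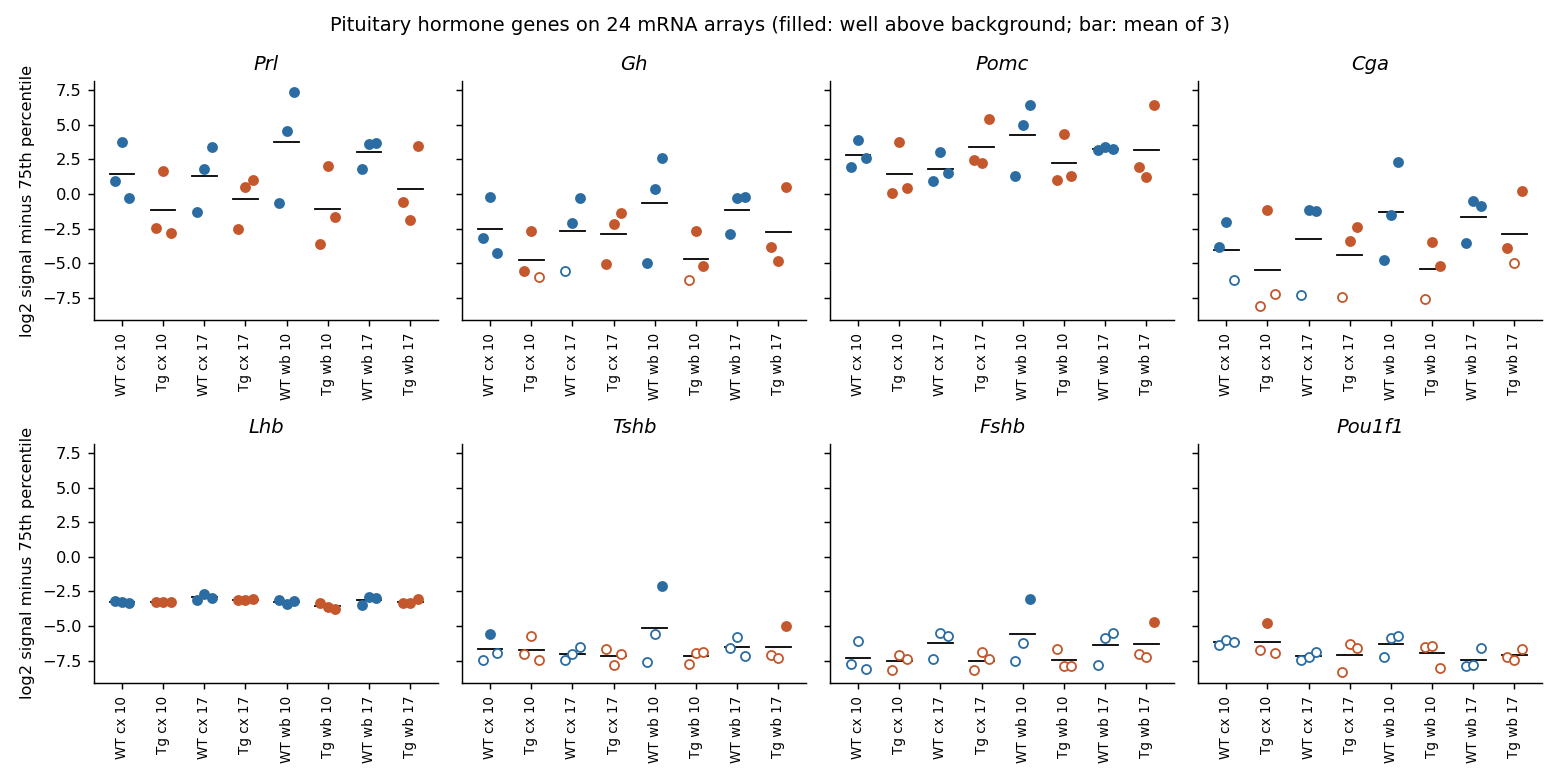
Log2 signal relative to the 75th percentile of the array (y axis) for the 8 genes in the 8 groups (x axis: WT or Tg for Tg2576, cx for cortex, wb for whole brain, age in months). Each point is 1 array, filled where the probe was well above background, and bars are means of 3 arrays. Prl runs from -3.58 to 7.38, whereas Lhb stays between -3.75 and -2.68.

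Prl had the widest range of log2 signal of the 8 genes, 10.96 between the lowest and the highest array, or 1995-fold. In the cortex at 10 months the 3 WT arrays read 0.96, 3.74 and -0.28 and the 3 Tg2576 arrays -2.42, 1.66 and -2.80. In the cortex at 17 months the WT arrays read -1.28, 1.82 and 3.39 and the Tg2576 arrays -2.49, 0.48 and 0.99. In each tissue and age the genotypes overlapped, and the arrays of a single group were several log2 units apart. In whole brain at 10 months the WT arrays read -0.68, 4.55 and 7.38, the widest spread of any group, and the Tg2576 arrays -3.58, 2.03 and -1.65. In whole brain at 17 months the WT arrays read 1.83, 3.62 and 3.72 and the Tg2576 arrays -0.58, -1.84 and 3.45. The 8.06 log2 units between the lowest and highest 10-month-old WT whole brain exceeded the 4.93 between the lowest and highest of the 8 group means.

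Gh followed the same arrays. Its log2 signal in the WT cortex was -3.16, -0.23 and -4.25 at 10 months and -5.55, -2.06 and -0.32 at 17 months, and in the Tg2576 cortex -5.59, -2.66 and -5.96 at 10 months and -5.04, -2.16 and -1.37 at 17 months. In WT whole brain it was -4.94, 0.37 and 2.59 at 10 months and -2.89, -0.32 and -0.20 at 17 months, and in Tg2576 whole brain -6.23, -2.66 and -5.23 at 10 months and -3.79, -4.86 and 0.54 at 17 months. The array with the highest Gh of its group was the one with the highest Prl in 8 of 8 groups, and the same held for the lowest array in 8 of 8 groups. Over the 21 arrays on which Gh was well above background, which leave out its lowest, it ranged over 8.18 log2 units.

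Cga spanned 10.40 log2 units, from -8.07 on a 10-month-old Tg2576 cortex array, where it was not well above background, to 2.34 on the WT whole brain array at 10 months that also had the highest Prl and Gh. Over the 17 arrays on which it was well above background it spanned 7.53. Its highest array in a group was that of Prl in 6 of 8 groups, and its lowest that of Prl in 7. The 7 arrays on which Cga was not well above background, 5 of cortex and 2 of whole brain, all had Prl at -0.28 or lower.

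Pomc, measured above background on every array, spanned 6.32 log2 units, or 79.9-fold. In the cortex its log2 signal was 1.96, 3.90 and 2.58 (WT) and 0.09, 3.75 and 0.42 (Tg2576) at 10 months, and 0.95, 3.07 and 1.52 (WT) and 2.43, 2.27 and 5.42 (Tg2576) at 17 months. In whole brain it was 1.34, 5.02 and 6.40 (WT) and 1.04, 4.35 and 1.32 (Tg2576) at 10 months, and 3.18, 3.38 and 3.27 (WT) and 1.99, 1.21 and 6.41 (Tg2576) at 17 months. Pomc and Prl parted on several arrays. Prl minus Pomc was lowest, at -4.92, on the first Tg2576 array of 17-month-old cortex, with Pomc at 2.43 and Prl at -2.49. It was highest, at 1.87, on the third WT array of that tissue and age. On the first Tg2576 array of 10-month-old whole brain it was -4.62. In the 17-month-old cortex the third Tg2576 array had Pomc at 5.42 with Prl at 0.99. The third WT array there had Pomc at 1.52 with Prl at 3.39. The narrowest group was the 17-month-old WT whole brain, where Pomc varied by 0.20 log2 units while Prl varied by 1.89.

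Lhb did not share this variation: it stayed within 1.07 log2 units over 24 arrays, a 2.10-fold range. On the third WT whole brain array at 10 months, where Cga was highest at 2.34, Lhb read -3.19. Whether its 1 probe reads Lhb RNA in these samples was not tested. Tshb was well above background on a WT cortex array at 10 months (-5.57), on the third WT whole brain array at 10 months (-2.13) and on the third Tg2576 whole brain array at 17 months (-5.01). Fshb was so on the latter pair of arrays only, at -3.07 and -4.70. These were the arrays with the highest Prl of their groups. Pou1f1 was well above background on 1 array, the second 10-month-old Tg2576 cortex, at -4.81, and that array also had the highest Prl of its group.

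The order of the group means was alike for Prl and Gh, with WT whole brain at 10 months and then at 17 months on top (means of 3.75 ± 4.09 and 3.05 ± 1.07 for Prl, SD, n = 3) and Tg2576 cortex at 10 months at the bottom (-1.18 ± 2.47). Neighbours in that order never lay further apart than 1.58 for Prl, 1.85 for Gh, 1.25 for Cga and 0.88 for Pomc. These gaps were all smaller than the SD between arrays of 1 group, pooled over the 8 groups, which was 2.58 for Prl, 2.43 for Gh, 2.85 for Cga and 1.86 for Pomc. For Lhb the SD was 0.18, and the largest gap between neighbouring means was 0.31, which set the 10-month-old Tg2576 whole brain below the other groups.

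For comparison, the median of this within-group SD over 40483 probes that passed the detection filter was 0.16, and 99% of the probes lay below 0.91. Cga ranked 4th, Prl 5th, Gh 7th and Pomc 20th among them, and Lhb lay at the 57.6th percentile. Since strong variation between arrays is what the genes were chosen for, these ranks describe the choice.

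**Figure D2:**
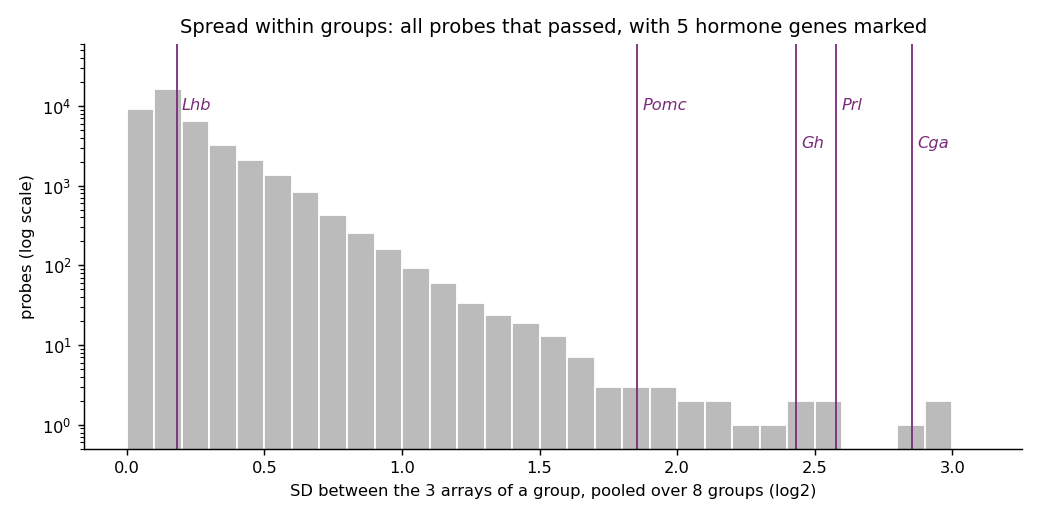
Number of probes (y axis, log scale) by their SD between the 3 arrays of a group, pooled over 8 groups (x axis, log2), for all 40483 probes that passed the filter. Lines mark 5 hormone genes, of which Lhb sits at 0.18 near the bulk and Pomc, Gh, Prl and Cga at 1.86 to 2.85 in the far tail.

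The hormone genes rose and fell together. Over the 24 arrays Pearson's r was 0.97 between Gh and Prl, 0.94 between Gh and Cga, 0.93 between Prl and Cga, and 0.83, 0.79 and 0.79 between Pomc and Gh, Prl and Cga. Spearman's rho for Gh and Prl was 0.95, and r was 0.96 without the 2 arrays with Gh farthest from its median. On each of the 3 slides, which held 8 arrays each, r between Gh and Prl was 0.98, 0.98 and 0.95. After the group means were subtracted it was 0.98. Lhb had an r of 0.24 with Prl over the 24 arrays, and of 0.22, -0.02 and 0.65 on the 3 slides. These coefficients share their arrays and scaling and are given without a p.

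**Figure D3:**
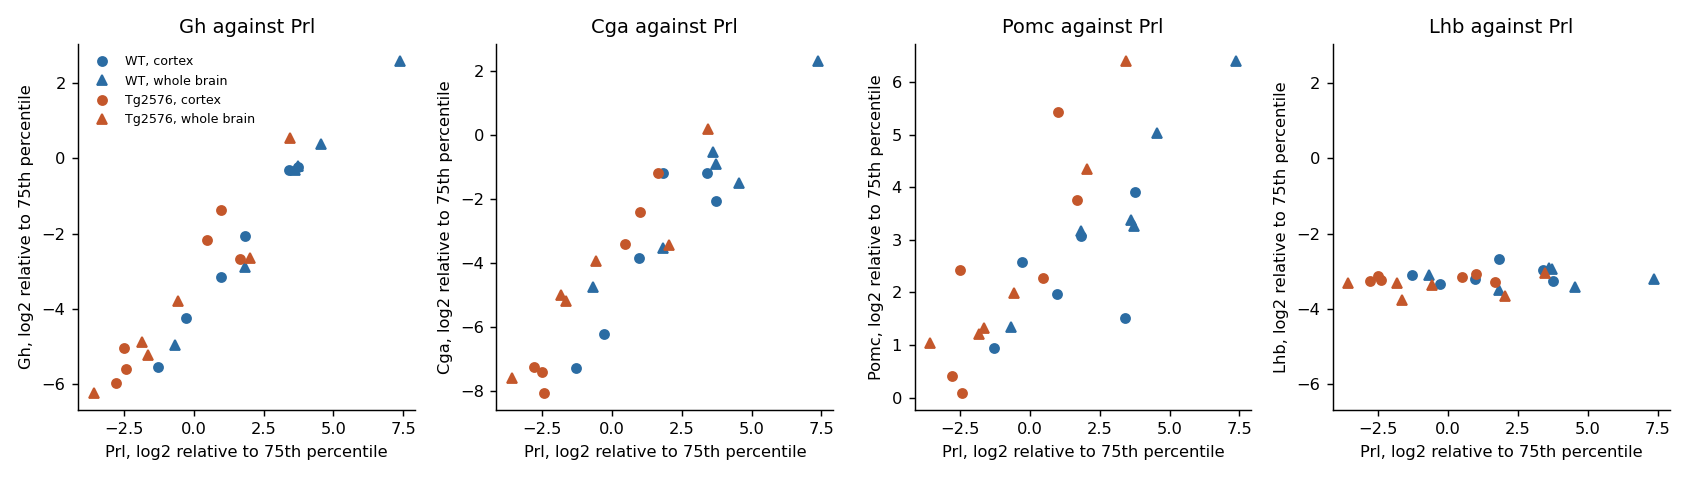
Log2 signal of Gh, Cga, Pomc and Lhb (y axes) against that of Prl (x axes), each relative to the 75th percentile of its array, with 1 point per array, coloured by genotype and shaped by tissue. Gh and Cga lie along a line with Prl (r of 0.97 and 0.93), Pomc scatters more (r of 0.79), and Lhb, drawn on the scale of the Gh panel, is flat.

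Among probes that passed the detection filter, no gene outside this set came as close. By r over the 24 arrays the genes most like Prl were Gh, Cga and Pomc, followed by Fgf8 at 0.66, Hsd3b7 at 0.63, Fam114a1 at 0.63, Kcnj16 at 0.61 and Serpinh1 at 0.59. Of those probes 3 had an r over 0.7 with Prl, namely those of Gh, Cga and Pomc. Fshb and Tshb, which did not pass the filter and were near background on nearly all arrays, had an r of 0.75 and 0.74. For Gh the genes after the hormones were Fgf8 at 0.66, Bhlha15 at 0.65, Gimap3 at 0.61, Tax1bp3 and Cd2 at 0.60, and for Pomc they were Tax1bp3 at 0.65, Pros1 at 0.64, Gimap3 at 0.63, Tent5c at 0.62 and Aga at 0.61. Fgf8 itself spanned only 0.55 log2 units over the arrays. In the deviations from the group means 12 probes had an r over 0.7 with Prl, and the genes after the hormones reached 0.73 for Prl (Zfp773), 0.76 for Gh (Yipf1) and 0.82 for Pomc (Tsn), where Tsn, encoding the nucleic acid binding protein translin, lay just above Cga.

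Other pituitary genes followed weakly or were dim. Of 13 pituitary transcription factors 9 passed the filter, and their r with Prl ran from -0.42 to 0.51 with a median of 0.16, against a median of -0.02 over all probes tested. The highest, Lhx3, a LIM homeodomain factor of the early gland, had an r of 0.51 with Prl and spanned -4.36 to -2.27. Tbx19, the corticotroph factor, and Hesx1 and Neurod4 were well above background on no array. Of 10 receptors through which releasing factors, dopamine or estrogen act on the gland 8 passed, with a median r of 0.00. Gnrhr, the receptor of gonadotropin-releasing hormone, was well above background on 1 array.

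The 15 hypothalamic releasing factors and peptides were all well above background on at least 11 arrays, and their r with Prl ran from -0.31 to 0.32. Several of them varied strongly too, with a within-group SD of 2.06 for Pmch (melanin-concentrating hormone), 1.99 for Hcrt (orexin), 1.87 for Oxt (oxytocin) and 1.58 for Avp (vasopressin). Their r with Prl was 0.15, 0.25, 0.01 and 0.10. Of the 10 genes of prohormone processing and secretory granules, such as Cpe, Chga and Pcsk2, all passed, with r of -0.19 to 0.21 and a within-group SD of at most 0.17 in all of them but Scgn, a calcium-binding protein that ran from -8.13 to -2.42. Among the receptors of pituitary hormones 5 of 10 passed, with r of -0.22 to 0.11.

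Markers of other tissues near the pituitary or the dissected region were set beside Prl in the same way. The r with Prl ran from 0.19 to 0.39 for 8 genes of meninges and connective tissue, from 0.18 to 0.29 for 4 blood genes, from -0.17 to 0.23 for 10 choroid plexus genes, from -0.21 to 0.37 for 3 pineal genes, from -0.18 to -0.04 for 8 olfactory bulb genes and from -0.24 to 0.02 for 7 cortex genes. The summed level of the 8 hormone genes ranged from 1.75 to 8.04 (log2) in the 10-month-old WT whole brains, while that of the cortex markers ranged from 4.44 to 4.64 and that of the choroid plexus genes from 4.15 to 5.31 on the same arrays. In the 17-month-old Tg2576 whole brains the hormone genes ranged from 1.48 to 6.62 and the cortex markers from 4.65 to 4.94. How much pituitary tissue each sample held was not tested, and in bulk RNA fewer cells of a type and less RNA per cell cannot be told apart.

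Whether Tg2576 and WT mice differed was asked in each tissue and age. Prl, Gh and Cga had lower mean log2 signals in Tg2576 mice in all 4 comparisons under each scaling, and none of these differences passed the test. In the cortex at 17 months the sign turned for Gh without the second or the third WT array or the first Tg2576 array (up to 0.95) and for Cga without the first Tg2576 array (0.32). For Prl the difference (Tg2576 minus WT) was -2.66 (SE 1.52) in the cortex at 10 months, -1.65 (SE 1.39) in the cortex at 17 months, -4.82 (SE 2.29) in whole brain at 10 months and -2.71 (SE 1.37) in whole brain at 17 months. The adjusted p of limma was 0.59, 0.70, 0.47 and 0.44. With the slide as a block the Prl difference changed to -3.73 in the cortex at 17 months and -7.33 in whole brain at 10 months, where each genotype difference then rested on a slide with 1 array of 1 genotype and 3 of the other. The block moved Gh to -2.54 and Cga to -3.21 in the cortex at 17 months and Cga to -6.30 and Pomc to -3.22 in whole brain at 10 months, and Lhb there from -0.34 to -0.088, still without a call. The other genotype comparisons each lay on 1 slide.

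The 95% interval of the Prl difference in whole brain at 10 months ran from -10.37 to 0.73, which spans large falls and a small rise. With normexp background correction the Prl differences were -2.30, -1.52, -4.31 and -2.50, but those of Gh and Cga in the cortex at 10 months shrank to -1.11 and -0.13. For Gh the difference ran from -4.05 (whole brain, 10 months) to -0.21 (cortex, 17 months), for Cga from -4.10 to -1.18 and for Pomc from -2.02 to 1.53, where Pomc was higher in the Tg2576 cortex at 17 months. For Lhb it lay between -0.34 and 0.01. In each of the 4 comparisons 0 of the 5 genes passed the adjusted threshold, against 0% of all probes tested, and 0 of 5 had an unadjusted limma p under 0.05, against 9.95%, 9.32%, 11.4% and 13% of all probes. The genotypes overlapped in all 4 comparisons for all 5 genes, while 8.94%, 7.2%, 9.01% and 9.26% of all probes lay lower in Tg2576 without overlap and 8.29%, 8.75%, 8.61% and 12.8% higher. Summed log2 levels of some other tissue markers lay apart between the genotypes in the cortex. The lists that follow were picked for this, and the sums of the marker lists overlapped in every other case. At 10 months the 8 olfactory bulb genes ranged from 1.19 to 1.88 in WT and from 2.33 to 4.18 in Tg2576. At 17 months the 10 choroid plexus genes ranged from 3.31 to 4.55 in WT and from 4.56 to 5.96 in Tg2576, which almost touch. The 8 meningeal genes then ranged from 3.94 to 4.47 in WT and from 3.44 to 3.76 in Tg2576. None of their genes was called, and their part in the hormone differences was not tested. The methods' t-test, run on the same values with Benjamini-Hochberg adjustment, also called 0 of the 5 genes.

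**Figure D4:**
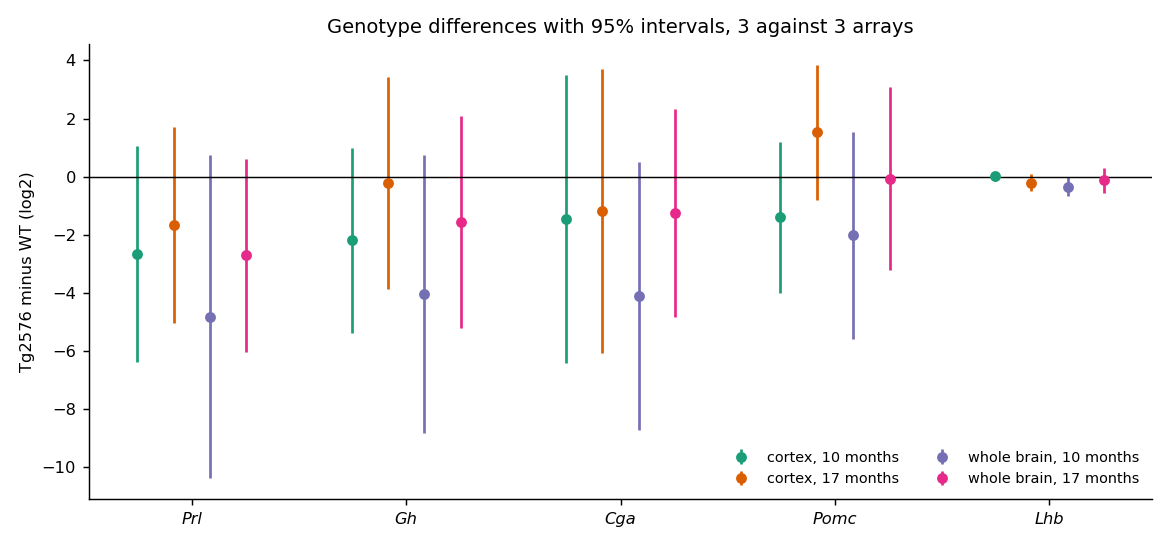
Difference in log2 signal between Tg2576 and WT (y axis) for 5 hormone genes (x axis) in the 4 combinations of tissue and age. Points are limma estimates from 3 against 3 arrays and bars are 95% intervals; the points of Prl, Gh and Cga all lie below 0, and the longest bar, Prl in whole brain at 10 months, runs from -10.37 to 0.73.

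Because the hormone genes moved together between arrays, the difference between a pair of them on the same array varied less than either gene, and array scaling cancels in it. Such differences were looked at after the values had been seen and carry no test. Prl minus Gh had a within-group SD of 0.49, against 2.58 and 2.43 for the single genes. In the 12 WT arrays it averaged 4.14 ± 0.33 (SD, n = 12) and in the 12 Tg2576 arrays 3.19 ± 0.71 (SD, n = 12), and the mean of the 4 genotype differences was -0.96. At 17 months the cortex read 4.27, 3.88 and 3.71 in WT and 2.54, 2.64 and 2.37 in Tg2576, and whole brain 4.72, 3.94 and 3.92 in WT and 3.21, 3.03 and 2.91 in Tg2576. The genotypes did not overlap in either tissue at that age. Of single probes 7.2% in the cortex and 9.26% in whole brain lay lower in Tg2576 without overlap at that age. No such share was computed for pairs of genes. In the cortex at 17 months the Tg2576 arrays shared a slide with the third WT array (3.71) only, and the other WT arrays lay on another slide. No fit with the slide as a block was run for pairs. At 10 months the genotypes did overlap: the cortex read 4.12, 3.97 and 3.96 in WT and 3.17, 4.33 and 3.17 in Tg2576, and whole brain 4.26, 4.18 and 4.78 in WT and 2.65, 4.68 and 3.57 in Tg2576.

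**Figure D5:**
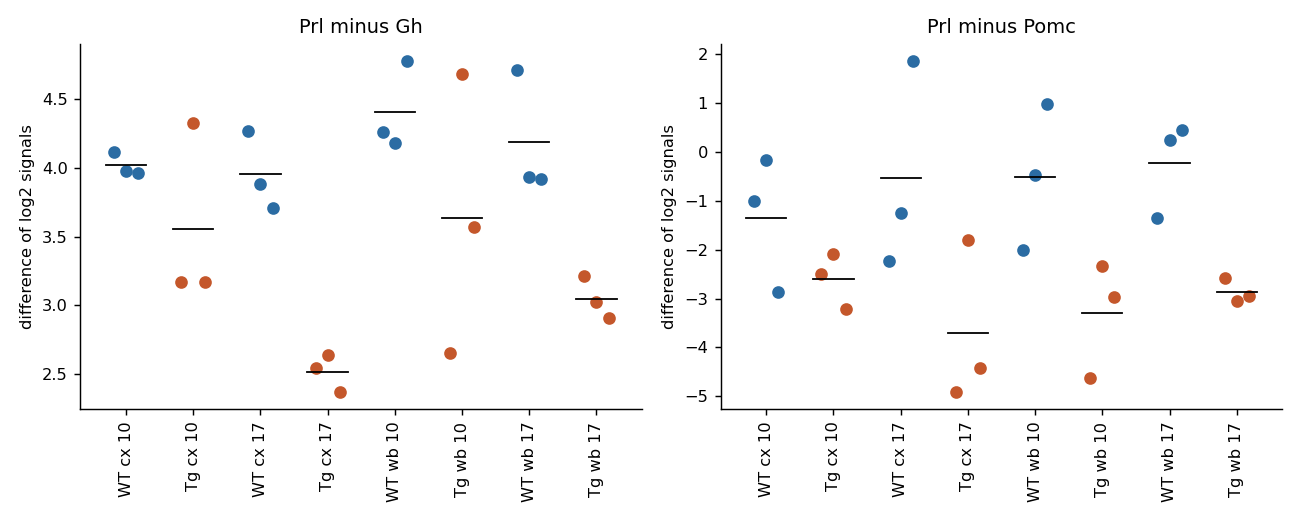
Log2 signal of Prl minus that of Gh (left) and of Pomc (right) on the same array (y axes), by group (x axes, labels as in the plot of the 8 genes), with 1 point per array and bars for the means of 3. In the left panel the 6 Tg2576 arrays of 17 months lie between 2.37 and 3.21, under the 6 WT arrays of that age at 3.71 to 4.72.

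Among the Tg2576 arrays of 10 months Prl minus Gh was higher where Prl was higher. The second array of cortex and that of whole brain had Prl at 1.66 and 2.03, with Prl minus Gh of 4.33 and 4.68. The other Tg2576 arrays of that age had Prl from -3.58 to -1.65 and Prl minus Gh from 2.65 to 3.57. Whether the difference follows the level was not tested. The arrays named next are of 17 months and were picked as examples. The third Tg2576 whole brain had Prl at 3.45, close to the 3.62 of the second WT whole brain, yet Prl minus Gh was 2.91 on the former and 3.94 on the latter. The first WT cortex had Prl at -1.28, below the third Tg2576 cortex at 0.99, with Prl minus Gh of 4.27 against 2.37, although Gh was not well above background on that WT array. Leaving out arrays on which either gene was not well above background changed the mean genotype difference from -0.96 to -0.74.

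The other 5 pairs among Prl, Gh, Cga and Pomc were computed in the same way. Prl was lower relative to Pomc in Tg2576 in all 4 combinations, by -2.47 on average (WT -0.65 ± 1.40, Tg2576 -3.12 ± 1.02, SD, n = 12 each), and 12 of 12 Tg2576 arrays lay below the WT mean of their tissue and age. Prl minus Cga differed by -0.96, with 9 of 12 arrays below, Gh minus Pomc by -1.51 and Cga minus Pomc by -1.51, with 11 of 12 arrays below for both. Gh minus Cga differed by -0.01, with 6 of 12 arrays below. All Tg2576 arrays lay under all WT arrays in 2 of 4 combinations for Prl minus Pomc, as for Prl minus Gh. This held in 1 combination each for Prl minus Cga and Gh minus Pomc, and in 0 for Gh minus Cga and Cga minus Pomc. The share of other gene pairs with such a separation was not computed. The pairs share genes, so they are not independent. In each WT group Prl minus Pomc rose in the order of Prl. In the WT cortex at 17 months Prl of -1.28, 1.82 and 3.39 went with -2.22, -1.25 and 1.87. The order also held in the Tg2576 groups of 10 months but not in those of 17 months. In the Tg2576 cortex at 17 months Prl of -2.49, 0.48 and 0.99 went with -4.92, -1.79 and -4.43. Whether Prl minus Pomc was lower in Tg2576 beyond the lower Prl level was not tested. The pairs with Cga rest partly on arrays where it was not well above background, which were 5 of Tg2576 and 2 of WT. On arrays with both genes well above background the difference was -1.14 for Prl minus Cga, -1.26 for Cga minus Pomc and -0.54 for Gh minus Cga. With normexp it was -1.74, -0.44 and -0.38, and -0.82 for Gh minus Pomc, while Prl minus Pomc was -2.17.

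Cortex and whole brain were compared within genotype and age. The mean log2 signals of Prl, Gh and Cga were lower in the cortex in all 4 comparisons, except that Cga in Tg2576 at 10 months was higher with normexp (0.29). The differences were -2.28, -1.89 and -2.72 in WT at 10 months and -0.11, -0.03 and -0.08 in Tg2576 at 10 months, and 0 of the 5 tested genes passed the adjusted threshold in any of them. Of all probes 0.0101% and 10.3% were called in WT at 10 and 17 months and 0% and 1.97% in Tg2576. Pomc in WT at 17 months was nearest, with cortex arrays at 0.95, 3.07 and 1.52 below whole brain arrays at 3.18, 3.38 and 3.27 (difference -1.43, SE 0.52). Its adjusted p from limma was 0.13. The unadjusted p was under 0.05 for 1 of the 5 genes there, as for 30.9% of all probes, and 38.8% of all probes did not overlap. Without the second WT cortex array the difference was -2.04 and passed, with an adjusted p of 0.037, and without the other arrays in turn it did not. Lhb in Tg2576 at 10 months was higher in the cortex by 0.32 with an adjusted p from limma of 0.19, and passed only without the first Tg2576 whole brain array (0.45). Its tissues did not overlap, as for 30.1% of all probes, and it was the 1 gene of 5 with an unadjusted p under 0.05, as 22.9% of all probes had. In WT at 10 months and Tg2576 at 17 months no hormone gene reached an unadjusted p under 0.05 or separated the tissues, against 23.7% and 20.9% of all probes with such a p and 31.5% and 28.8% without overlap. In none of these comparisons did the tissues share a slide, so tissue and slide cannot be told apart. Where 1 tissue spanned several slides, a fit with the slide as a random block gave -1.45 for Pomc in WT at 17 months and 0.32 for Lhb in Tg2576 at 10 months, again without a call.

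Between 10 and 17 months 0 of the 5 genes passed in any of the 4 groups of genotype and tissue, against 4.56% and 10.3% of all probes in the WT and Tg2576 cortex and 27.8% and 12.1% in WT and Tg2576 whole brain. The change in Prl (17 minus 10 months) was -0.16 (SE 1.47) in the WT cortex, 0.84 (SE 1.44) in the Tg2576 cortex, -0.70 (SE 1.97) in WT whole brain and 1.41 (SE 1.83) in Tg2576 whole brain. With the slide as a block Prl changed by -1.20 in the WT cortex and by 0.16 in Tg2576 whole brain. Of the 5 genes Cga in Tg2576 whole brain had the largest change, 2.51 (SE 1.58), or 1.41 with that block. Lhb was higher at 17 months without overlap in the WT cortex, by 0.35, and in the Tg2576 cortex, by 0.14, while 33.5% and 38.2% of all probes did not overlap there. In whole brain no hormone gene separated the ages, against 48.9% and 38.6% of all probes. Lhb in the WT cortex was the 1 gene with an unadjusted p under 0.05, which 25.9% and 31% of all probes had in the WT and Tg2576 cortex and 42.4% and 31.7% in WT and Tg2576 whole brain. Pomc in WT whole brain differed by -0.98, and by -2.44 without the first 10-month-old array, where it passed with an adjusted p of 0.022. The genotype difference changed with age by 2.11 (SE 2.98) for Prl in whole brain and by 2.93 (SE 1.58) for Pomc in the cortex. Their adjusted p from limma was 0.75 and 0.58, and 0 of the 5 genes passed in either tissue, against 0% of all probes. Beside these changes the haemoglobin gene Hbb-b2, a marker of blood, was lower at 17 months in WT whole brain (-2.31) and in the WT cortex (-2.31). In whole brain the call held in 3 of 6 cases with 1 array left out. It was lost there with no filter, the replicate block and the methods' t-test. In the cortex Hbb-b2 was not called with a slide block or when any 1 array was left out. Slc4a1, another blood gene, was lower in WT whole brain (-0.86), a call held in 6 of 6 cases. The part of blood was not tested. In the Tg2576 cortex and in WT whole brain age and slide cannot be told apart.

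The same fits gave the genes that act around the pituitary hormones. Between genotypes no gene of any of the lists was called. Between tissues 3 of 9 pituitary transcription factors tested were lower in the WT cortex at 17 months, where 10.3% of all probes were called and the median of the list was -1.07 against 0.02 over all probes. These were Lhx4, a LIM homeodomain factor of early pituitary growth (-3.29), Pax7, a factor of melanotrophs (-1.47), and Gata2, a factor of thyrotrophs and gonadotrophs (-1.07), all of which also act in brain. In the same comparison Drd2, the dopamine receptor that restrains lactotrophs and is abundant in striatum, was higher (1.09), as was the somatostatin receptor Sstr2 (0.51). Leaving out each of the 6 arrays in turn kept the call of each of these factors in 2 cases and that of each receptor in 1, and without the first WT whole brain array no probe was called at all. With the slide as a random block Lhx4 and Gata2 were called and Pax7, Drd2 and Sstr2 were not. Agrp, a peptide of arcuate neurons, was lower in the Tg2576 cortex than in whole brain at 17 months (-1.53), the 1 call among 15 hypothalamic genes, and was not called when any 1 of the 6 arrays was left out.

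With age the same 3 factors, Gata2 (1.39), Pax7 (0.82) and Lhx4 (1.99), rose in WT whole brain, where 27.8% of all probes were called. Gata2 and Pax7 remained called whichever of the 6 arrays was left out, and Lhx4 in 1 of these 6 cases. In the Tg2576 cortex Gata2 (1.32) and Pax7 (2.58) rose, 2 of 8 tested where 10.3% of all probes were called. The list median there was 0.85 against -0.01, and each gene remained called in 2 of the 6 cases. In WT whole brain and the Tg2576 cortex age and slide cannot be told apart. Gata2 was also called higher in Tg2576 whole brain (0.90), where 12.1% of all probes were called. That call held in 2 of the 6 cases and with the slide as a block. Pcsk1n, which encodes an inhibitor of a prohormone convertase, was called higher at 17 months in all 4 groups, by 0.55 and 0.62 in the WT and Tg2576 cortex and by 0.80 and 0.83 in whole brain. In WT whole brain the call held whichever of the 6 arrays was left out, in Tg2576 whole brain in 1 of 6 cases and in the cortex in 0 of 6 for either genotype. A block for slide removed the call in the WT cortex and in Tg2576 whole brain, at 0.57 and 0.78 (limma, adjusted p = 0.058 and 0.062). Chga, the granule protein chromogranin A, rose in Tg2576 mice by 0.57 in the cortex and 0.52 in whole brain, each call held in 1 of 6 cases. Of the 15 hypothalamic genes Sst rose (0.30), and Crh and Pmch were lower at 17 months (-0.49 and -0.39), in WT whole brain. The call of Crh held in 6 of 6 cases, that of Sst in 4 and that of Pmch in 2. Among the receptors Trhr, for thyrotropin-releasing hormone, was lower at 17 months in whole brain of WT (-0.42) and Tg2576 mice (-0.56), and Crhr1, for corticotropin-releasing hormone, was higher in WT whole brain (0.36), each call held in 1 of 6 cases. None of the receptors of pituitary hormones was called in any comparison. The genes named here were chosen because they were called.

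The miRNA arrays of the same 8 groups gave a second readout. miR-375, a miRNA abundant in pituitary and pancreatic endocrine cells, was well above background on 2 of 12 cortex arrays and 10 of 12 whole brain arrays, and on 8 of the latter it was at or under the floor of -5.67 (log2 relative to the array's 75th percentile). It was highest in the third WT whole brain at 10 months, at -2.73, followed by the third Tg2576 whole brain at 17 months at -4.66 and the second WT whole brain at 10 months at -5.39. The mRNA arrays with these group labels and numbers had Prl at 7.38, 3.45 and 4.55, although the labels do not state that same-numbered arrays of the 2 assays share RNA. Other arrays with miR-375 at the floor had similar Prl by number, such as the second WT whole brain at 17 months (3.62) and the second WT cortex at 10 months (3.74). The r of miR-375 with Prl was 0.66 in whole brain and 0.19 in the cortex, where 11 of 12 arrays were at the floor. miR-7a and miR-7b, which are common in hypothalamus and pituitary, were well above background on all 24 arrays. They ranged from 0.21 to 1.04 and from -1.23 to -0.37 in whole brain. In the cortex they ranged more widely, from -0.61 to 1.10 and from -1.85 to -0.39. miR-200b, of a family typical of epithelia and the olfactory bulb, ran from the floor to 0.47 in whole brain and to 0.72 in the cortex, and its median was -2.98 and -3.01.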

How the data were processed

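Total RNA from cortex or whole brain was labelled with a low-input kit and hybridized to 1-colour Agilent mouse arrays, per the labels. The authors deposited spot intensity values from Agilent Feature Extraction 10.7.3.1, with background subtracted but no scaling from array to array. They also deposited log2 values, at least 99.8% of which equalled the log2 intensity less 1 constant for the array, to within 0.01. Their column medians were -3.38 to -3.22.

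Spots marked as outliers were dropped, those of a probe averaged, and log2 values reduced by the array's 75th percentile. Probes entered a test when 2 or more arrays in either group were well above background. limma 3.58.1 (R 4.3.3) gave moderated tests of 3 against 3 arrays, with Benjamini-Hochberg adjustment over all probes at 0.05, in 12 comparisons and 2 interactions. Symbols came from RefSeq transcripts for 26056 of 55681 probes, and 2 genes of the lists had no probe. A further gene of the cortex marker list is not reported here. miRNA values were scaled by the 75th percentile of 402 probes detected throughout, then floored. Precision is limited by how many arrays there are.

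The genes named are the 8 hormone genes, the genes most like Prl, Gh and Pomc by Pearson's r over 24 arrays, and genes of the lists, some chosen after their values were seen. The members and lists were chosen with earlier results of these data known. Alternatives were quantile and median scaling, normexp (offset 50), the authors' log2 values, no filter, all 24 arrays in 1 model, replicate and slide blocks, a t-test as in the methods, and omission of single arrays. The fit was tested on simulated data.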

Additional observations from a re-analysis of the deposited data

How the results depend on the processing

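The count of called hormone genes was 0 in the 12 comparisons under quantile and median scaling, normexp, the authors' log2 values, no filter, all 24 arrays in 1 model, the methods' t-test and, where it could be fitted, the slide as a block. The 2 interactions, run under the 3 scalings and the authors' values, also gave 0. Leaving out 1 array gave 0 to 1 in cortex against whole brain for WT at 17 months and Tg2576 at 10 months and in age for WT whole brain, and 0 in the other comparisons. The deviations of same-numbered arrays had an r of -0.16 to 0.19 between genotypes and of -0.07 to 0.12 between tissues. The labels do not say whether cortex and whole brain samples share an animal, and these r cannot settle it. A fit with the replicate number as a block called 0 hormone genes in each of the 12 comparisons. The alternative with a gene's next probe was not run, as each gene has 1. Over all probes the genotype calls, 0 in each comparison, rose with all 24 arrays in 1 model to 3 and 81 in the cortex at 10 and 17 months and 13 and 1 in whole brain, and with the slide block to 43 in the cortex at 17 months and 6 in whole brain at 10 months. Over all probes, the 3921 calls between tissues in WT at 17 months fell to 797 with the slide as a random block, 3 with no filter, 2 with the replicate block and 0 without the first WT whole brain array, and the 1800 calls with age in the WT cortex fell to 0 with the slide block. Of 1030 single-gene differences under alternatives 964 kept direction and side of the threshold, 63 changed sign and 3 newly passed. The cause of the changes was not tested.

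Sign changes under other settings were as follows. For Tg2576 minus WT, Lhb was -0.031 with quantile and -0.031 with median scaling in the cortex at 10 months, and 0.052 with normexp in whole brain at 17 months. For cortex minus whole brain with normexp, Cga was 0.29 in Tg2576 at 10 months and Lhb -0.030 at 17 months. For age in the WT cortex, Gh was 0.10 with normexp and Cga -0.20 with the slide block. Cga in genotype by age in the cortex was -0.61 with normexp.

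Leaving out each array turned the sign of some differences that had no call. For Tg2576 minus WT the ranges were -0.027 to 0.047 for Lhb in the cortex at 10 months, -1.67 to 0.95 for Gh and -3.22 to 0.32 for Cga in the cortex at 17 months, and -1.67 to 0.92 for Pomc in whole brain at 17 months. For cortex minus whole brain they were -0.12 to 0.034 for Lhb in WT at 10 months and -2.58 to 0.47 for Cga in WT at 17 months. In Tg2576 at 10 months they were -1.98 to 0.24 for Pomc, -1.07 to 0.99 for Gh, -1.54 to 1.44 for Prl and -2.24 to 1.20 for Cga, and at 17 months -0.85 to 1.77 for Pomc, -1.23 to 1.47 for Gh, -1.78 to 0.87 for Prl and -2.53 to 0.055 for Cga. For age they were -1.26 to 1.36 for Gh, -1.20 to 1.13 for Prl and -0.27 to 2.85 for Cga in the WT cortex, and -0.19 to 3.26 for Cga in the Tg2576 cortex. In WT whole brain they were -2.44 to 0.094 for Pomc, -2.62 to 1.15 for Gh, -2.91 to 1.12 for Prl and -2.07 to 1.48 for Cga, and in Tg2576 whole brain -0.63 to 2.03 for Pomc and -0.14 to 2.96 for Prl. Genotype by age in the cortex ranged from -0.29 to 2.43 for Prl and from -1.75 to 2.44 for Cga. Gh minus Cga on the same array, Tg2576 minus WT, ranged from -0.22 to 0.28. Prl minus Gh ranged from -1.09 to -0.83 and Prl minus Pomc from -2.71 to -2.17.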
